A study of Mus musculus with 175 samples.

Results

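The cells compared here are the common myeloid progenitors (CMPs) and the megakaryocyte-erythroid progenitors (MEPs) of the fetal liver that were taken as negative for a reporter of the proximal P2 promoter of Runx1. They were chosen by the sample labels, as all cells labelled CMP_low and all cells labelled MEP_neg, and 1 P2- MEP was left out because it failed the filters on the number of reads and on unmapped reads. This gave 27 P2- CMPs and 56 P2- MEPs, or 83 of the 175 sequenced cells. All cells came from E14.5 livers of C57BL/6 crossed with ICR mice that carried 1 Runx1 allele reporting P1 as GFP and P2 as human CD4. The genotype field writes P2-GFP in place of P1-GFP, while the extraction protocol gives P1-GFP. Both populations were sorted as lineage-negative, Sca1-, cKit+ and CD16/32 low, without CD41 and with CD150. MEPs lacked CD34 and CMPs carried it. The labels name the MEPs as negative and the CMPs as low, and the latter were read here as negative for the human CD4 that reports P2. The livers of 2 litters were pooled before the sort, so that each population is 1 sample, cells are not replicates, and no test between the populations was possible. A cell was therefore called P2- by its surface reporter at the time of the sort, and the labels do not say what it had expressed before.

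CMPs are placed above MEPs in the classical scheme of blood formation, in which a CMP can give rise to granulocytes, monocytes, megakaryocytes and red cells, and a MEP to megakaryocytes and red cells. Commitment to the red cell line is carried by Gata1, Klf1 and Tal1, which switch on the erythropoietin receptor, haem synthesis, the globins and the red cell membrane skeleton. Spi1, which encodes PU.1, and the Cebp factors drive the granulocyte and monocyte lines, and Fli1 and Gata2 serve stem cells and megakaryocytes. Runx1 is needed for the first blood stem cells and later for megakaryocytes and lymphocytes, and its P1 and P2 promoters are used at different stages.

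Each cell was sequenced as a library of its own by Smart-Seq2, which reads whole transcripts and has no molecular identifiers. The reads on mouse genes were between 334625 and 1160112 in a P2- CMP (median 637603) and between 295064 and 888658 in a P2- MEP (median 520540.5). The spiked ERCC RNAs made up 2.14% of the reads of the median P2- CMP and 1.46% of those of the median P2- MEP. After every cell was thinned to 100000 reads, a median of 5690 genes was detected in P2- CMPs and 5970.5 in P2- MEPs. Numbers of cells with a read of a gene are given for thinned cells unless stated otherwise. The 18S ribosomal gene Rn18s-rs5 took a median of 8.67% of the reads of a P2- CMP and 5.64% of those of a P2- MEP, and its part in the ratios was not tested other than by leaving it out of the totals. The genes of the gate were visible in the RNA only in part. Cd34 had a read in 22 of 27 thinned P2- CMPs and 0 of 56 P2- MEPs, Kit in all 83 cells, and Ly6a, which encodes Sca1, had no read in any cell. One P2- CMP carried the MEP name in its subtype label and CMP in all its other labels. Its erythroid total of 8198 CPM lay below that of every P2- MEP. It was treated as a CMP.

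The level of a gene in a population was taken as its summed reads over the summed mouse-gene reads, as CPM, its reads out of each 1000000, and the 2 levels were compared as the log2 ratio of P2- CMPs over P2- MEPs. Intervals given in brackets are exact at 95% only if reads are independent, and they do not cover differences between cells. PCR copies are not independent molecules, so the true uncertainty is wider than these intervals. A gene passed the filter on low values when it had a read in at least 25% of the cells of either population and a mean of at least 1 read a cell. Of 9338 genes that passed, 1407 were at least 2-fold higher in P2- CMPs (15.1%), 683 were at least 2-fold lower (7.31%) and 7248 lay within 2-fold. The median ratio over all genes was 0.03. Higher genes thus outnumbered lower ones, with 67.3% of the genes past 2-fold, but this split depended on the scaling. When reads were scaled to the ERCC reads instead, the median over all genes shifted to -0.49, and 866 genes were higher and 1925 lower (31.03% higher). The higher genes were detected in a smaller share of the cells. Before thinning, they had a read in a median of 13 of 27 P2- CMPs, while the lower genes had one in a median of 37 of 56 P2- MEPs. Reads were absent from P2- MEPs for 80 of the higher genes, and from P2- CMPs for 15 of the lower genes.

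**Figure D1:**
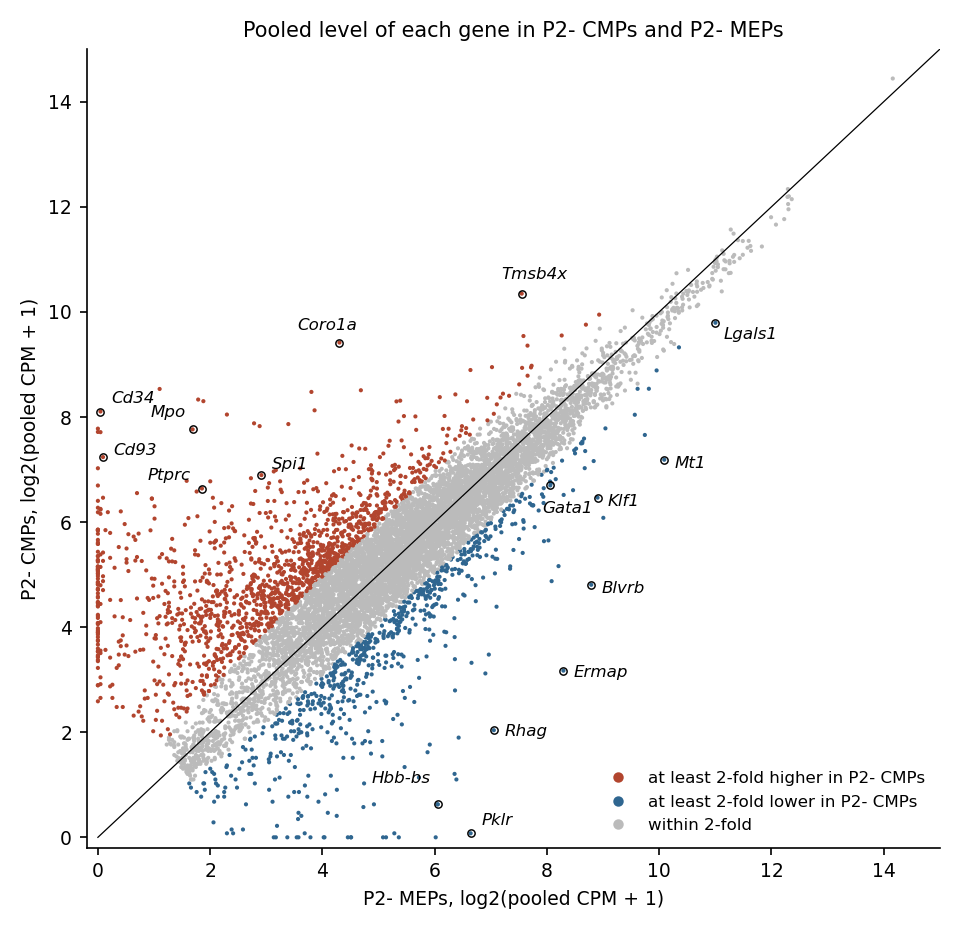
Pooled level of each of the 9338 genes that passed the filter, as log2(CPM + 1), in P2- MEPs (horizontal) and P2- CMPs (vertical). Red points are at least 2-fold higher and blue points at least 2-fold lower in P2- CMPs, grey points lie within 2-fold, and the line marks equal levels. Cd34, which the sort used, and Cd93 lie on the left edge with almost no reads in P2- MEPs, while Pklr lies on the lower edge with 1 read in all P2- CMPs.

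The red cell program was lower in P2- CMPs. Of 81 genes in 6 erythroid lists, 68 passed the filter, 37 of these were at least 2-fold lower in P2- CMPs and 4 at least 2-fold higher, with a median log2 ratio of -1.17. Over all genes the shares were 7.31% lower and 15.1% higher and the median was 0.03. Summed in each cell, these genes took 4233 to 9759 CPM in P2- CMPs (median 6287) and 8745 to 19819.8 CPM in P2- MEPs (median 13520.5). The ranges hardly met, as 26 of 27 P2- CMPs lay below every P2- MEP. The size of the difference varied from list to list.

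Among erythroid transcription factors, 5 of 16 were at least 2-fold lower in P2- CMPs, 0 were at least 2-fold higher, and the median log2 ratio was -0.52, beside 7.31% of all genes lower. With ERCC scaling 8 of the 16 were lower, beside 20.6% of all genes, with a median of -1.04, and with DESeq2 size factors 7 were. Klf1, the master activator of the globin locus and of most late erythroid genes, was at 221.2 to 894 CPM in P2- MEPs (median 477) and at 0 to 343.7 CPM in P2- CMPs (median 7.53). Every P2- MEP held it, but only 14 of 27 P2- CMPs did, and 6 of the P2- CMPs reached the range of the P2- MEPs. The log2 ratio of the pooled levels was -2.45 [-2.53, -2.38]. Gata1, the zinc finger factor that red cells and megakaryocytes both need, had a like pattern, with a read in 15 of 27 P2- CMPs and 56 of 56 P2- MEPs. Its median per cell was 51.7 CPM in P2- CMPs and 258.97 CPM in P2- MEPs, and the pooled ratio was -1.37 [-1.44, -1.30]. Cited4 was lowest of the list at -3.25 [-3.38, -3.13], and Gfi1b, a repressor that acts with Gata1, was at -1.14 [-1.22, -1.06], but lay within 2-fold with equal weight for every cell (-0.88) and after thinning (-0.92). The Gata1 partner Tal1 was at -0.96, but past 2-fold with ERCC scaling (-1.47), with DESeq2 size factors (-1.04) and without the cell of conflicting label (-1.03). Zfpm1 (-0.46), Ldb1 (-0.39) and Lmo2 (-0.16), which act with Gata1 as well, lay within 2-fold, as did Myb (-0.01), which keeps progenitors dividing. Nfe2, a factor of late megakaryocytes and red cells, was the highest of the list named here, also within 2-fold, at 0.91 [0.85, 0.97].

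Of the genes of erythropoietin signalling and erythroid receptors, 3 of 8 were at least 2-fold lower and 2 at least 2-fold higher, beside 7.31% and 15.1% of all genes. Epor, the erythropoietin receptor, was pooled at 50.2 CPM in P2- CMPs and 181 CPM in P2- MEPs (-1.85 [-1.95, -1.75]), with a read in 13 of 27 and 54 of 56 thinned cells. Tfrc, which takes up iron, was at -2.40 [-2.50, -2.30]. The signalling genes Stat5a (-0.24) and Stat5b (-0.33), which serve many cytokine receptors, lay within 2-fold. In the same list, Bcl2l1, which protects from cell death, was higher in P2- CMPs at 2.11 [1.92, 2.30], and so was the kinase gene Pim1 at 1.82 [1.62, 2.02].

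Of the haem synthesis genes, 7 of 12 were at least 2-fold lower in P2- CMPs and 1 was at least 2-fold higher, beside 7.31% and 15.1% of all genes. Summed over the list, a P2- CMP had a median of 873 CPM and a P2- MEP 2524 CPM, and 25 of 27 P2- CMPs lay below every P2- MEP. Cpox, a mitochondrial enzyme of the pathway, stood out. It was between 199 and 937 CPM in P2- MEPs and between 0 and 291.2 CPM in P2- CMPs, with 24 of 27 P2- CMPs below every P2- MEP and a log2 ratio of -2.94 [-3.03, -2.86]. Alad, the second enzyme of the pathway, was at -2.09 [-2.14, -2.04] with 20 P2- CMPs below every P2- MEP, and Fech, which inserts the iron, was at -2.08 [-2.21, -1.96]. Alas1, the housekeeping form of the first enzyme, was the member on the other side at 1.57 [1.41, 1.72]. Its erythroid form Alas2 had a read in 2 P2- CMPs and 4 P2- MEPs before thinning and did not pass the filter.

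Wide differences were found in the red cell membrane and skeleton, where 13 of 17 genes were at least 2-fold lower in P2- CMPs, 0 were higher and the median log2 ratio was -2.85, or -2.25 after thinning and -2.04 with equal weight for every cell. Of all genes, 7.31% were lower. Ermap, a blood group protein of the red cell membrane, was at 337.5 CPM in the median P2- MEP and at 0 CPM in the median P2- CMP, with highest cells of 801 and 163 CPM. Reads of it were found in 55 of 56 P2- MEPs but in 3 of 27 P2- CMPs, with a log2 ratio of -5.29 [-5.53, -5.05]. The Rh proteins Rhag (-5.41 [-5.81, -5.03]) and Rhd (-4.80 [-5.30, -4.33]) were each read in 1 of 27 thinned P2- CMPs, against 45 and 31 of 56 P2- MEPs. The water channel Aqp1 (-5.43), the skeleton protein Add2 (-4.96), the ankyrin Ank1 (-3.66) and the blood group enzyme Kel (-2.85) lay in the same direction. Slc4a1, Epb42 and Tmod1 had no read in P2- CMPs and reads in at most 3 P2- MEPs before thinning, and they did not pass the filter. Summed over the list, 23 of 27 P2- CMPs lay inside the range of the P2- MEPs, against 2 for haem synthesis. This overlap rested largely on 1 P2- MEP at 295.8 CPM. The next lowest P2- MEP had 587.5 CPM, above the median P2- CMP at 426.9 CPM.

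Among genes at 50 CPM or more in the higher population, the lowest ratio was that of Pklr, which encodes the pyruvate kinase of red cells and liver (chr3:89136142-89146784). Its level was 0 to 272.2 CPM in P2- MEPs, with a median of 89.5 CPM, and 54 of 56 held it before thinning. Across all P2- CMPs there was 1 read, in 1 cell, which gave a log2 ratio of -10.82 [-16.13, -8.34]. A gene with 0 reads is set to 3, so a gene with 1 read can rank beyond it, and the order of genes this low is not firm. Of the exon bases of Pklr, 22% are shared with Hcn3, and the counting did not use strand, so that reads of both genes there cannot be told apart. Blvrb, the biliverdin reductase of red cells, was at -4.03 [-4.16, -3.90] with 25 of 27 P2- CMPs below every P2- MEP. The metallothionein Mt1 was at 145 CPM in P2- CMPs and 1090.1 CPM in P2- MEPs (-2.91 [-2.97, -2.86]), and the peroxiredoxin Prdx2, abundant in red cells, was at -1.28 [-1.32, -1.24]. The ferritin genes Fth1 (-0.56) and Ftl1 (-0.26), and the carbonic anhydrases Car1 (-0.99) and Car2 (-0.70), lay within 2-fold, but with ERCC scaling Fth1 (-1.07), Car1 (-1.51) and Car2 (-1.21) were past it, as was Car1 with DESeq2 size factors (-1.08).

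Globin RNA was low in both populations and split between near-identical copies. Hbb-bs was at 65.6 CPM in P2- MEPs and 0.545 CPM in P2- CMPs (-6.91 [-7.97, -6.03]), and its neighbour Hbb-bt was at 9.51 and 232.2 CPM, a ratio of 4.61 [4.44, 4.79]. The directions were opposite. Of 4 globin genes that passed, 3 were at least 2-fold lower and 1 higher in P2- CMPs, beside 7.31% and 15.1% of all genes. Their median was -5.79, or -2.58 after thinning. The others were Hba-a1 (-5.27 [-8.33, -3.39]) and the embryonic Hbb-bh1 (-6.31 [-11.62, -3.80]), both under 5 CPM in either population. Reads of 1 copy can be counted on the other, so both values are uncertain. Summed over the list, the pooled level was 233.2 CPM in P2- CMPs and 86.7 CPM in P2- MEPs, nearly all of the former from Hbb-bt. The median cell had 21.7 CPM among P2- CMPs and 17.9 CPM among P2- MEPs, and the ranges overlapped.

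Other genes among the 15 with the lowest ratios were not in the lists. Sphk1, a kinase that makes the lipid signal sphingosine 1-phosphate, had no read in P2- CMPs and 63.8 CPM in P2- MEPs. Against the floor of 3 reads over the population its log2 ratio was at most -8.61. Col5a1, a collagen (-6.17 [-6.87, -5.56]), Atp7b, a copper transporter (-5.95 [-6.59, -5.37]), Sh2d4a (-6.90 [-7.96, -6.02]) and Tspo2, a membrane protein of red cell precursors (-3.77 [-4.06, -3.50]), were each read in at most 3 of 27 thinned P2- CMPs and in 39 to 42 of 56 P2- MEPs. In CPM, the widest gap among genes lower in P2- CMPs was that of Lgals1, which encodes galectin-1, at 2051 CPM in P2- MEPs and 887 CPM in P2- CMPs (-1.21 [-1.23, -1.19]).

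As examples of upstream sequence, the 250 bases before the start of the 3 lowest-ranked genes with an entry in the promoter table of RefSeq (build GRCm38.p6, the most upstream start of each gene) are printed 5′ to 3′ on the strand of the gene. Pklr lies at chr3:89135892-89136141 on the plus strand, Sphk1 at chr11:116530850-116531099 on the plus strand and Hbb-bs at chr7:103827929-103828178 on the minus strand. Capitals mark matches, on either strand, to the letters AGATAA, which GATA factors bind, and CACACCC, the CACCC element that Klf1 binds.
Pklr: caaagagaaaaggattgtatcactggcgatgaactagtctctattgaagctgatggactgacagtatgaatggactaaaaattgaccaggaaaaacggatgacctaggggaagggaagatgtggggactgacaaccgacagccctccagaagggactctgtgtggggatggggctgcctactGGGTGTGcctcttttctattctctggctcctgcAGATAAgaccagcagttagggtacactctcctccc
Sphk1: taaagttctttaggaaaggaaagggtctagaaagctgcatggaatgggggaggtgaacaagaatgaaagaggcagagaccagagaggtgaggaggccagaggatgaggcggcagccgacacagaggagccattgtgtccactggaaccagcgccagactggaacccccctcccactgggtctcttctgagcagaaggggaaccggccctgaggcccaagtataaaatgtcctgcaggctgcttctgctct
Hbb-bs: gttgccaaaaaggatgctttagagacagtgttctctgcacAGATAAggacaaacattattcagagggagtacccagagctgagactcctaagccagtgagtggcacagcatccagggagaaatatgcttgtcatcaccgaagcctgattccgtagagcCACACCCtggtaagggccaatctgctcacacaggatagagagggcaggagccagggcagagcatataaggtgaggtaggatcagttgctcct
The upstream sequence of Pklr held 1 AGATAA that starts 35 bases before the transcript and 1 CACACCC on the opposite strand 68 bases before it. That of Hbb-bs held both as well, at 210 and 92 bases, and that of Sphk1 held neither. Of all 27025 genes in the table, 10.2% had AGATAA and 6.90% had CACACCC in this window on either strand. An entry was found for 6895 of the 9338 genes that passed, of which 5.50% had AGATAA and 6.89% had CACACCC, and for 493 of the 683 lower genes, of which 5.07% and 7.71% had them. The lower genes with an entry are under 80% of all, so a comparison of these shares is void. The place of Hbb-bs among the lowest ratios shares the uncertainty of its counts. A match is a description of letters and was not tested for binding.

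**Figure D2:**
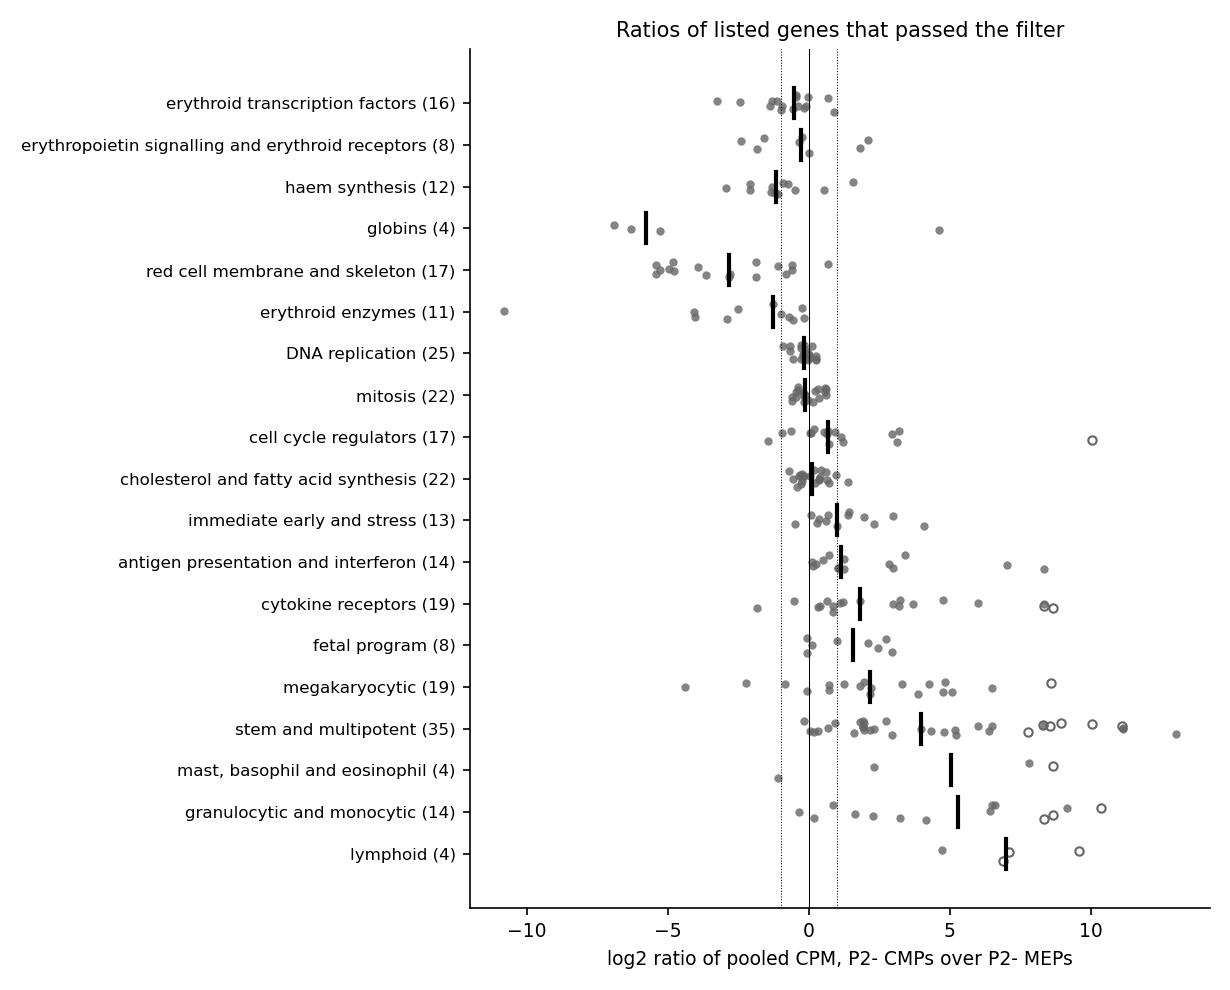
Log2 ratio of pooled CPM, P2- CMPs over P2- MEPs, for each gene that passed the filter in 19 lists (the number that passed in brackets). Each point is a gene, open points are bounds where 1 population had 0 reads, black bars are the medians of the lists, and dotted lines mark 2-fold. The erythroid lists lie to the left and the stem, granulocytic and monocytic lists to the right, while DNA replication and mitosis lie within 2-fold.

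Genes of stem cells and multipotent progenitors were higher in P2- CMPs. Of 35 that passed of 37 listed, 29 were at least 2-fold higher, 0 were at least 2-fold lower and the median log2 ratio was 3.98, with genes at 0 reads in P2- MEPs set at their bound. Genes seen only in P2- CMPs can pass the filter through that population alone, so the count is read beside the 15.1% of all genes. With a filter over all 83 cells, 24 genes passed, 18 of them higher, with a median of 1.96, beside 10.8% of all genes that passed this filter. In single cells the summed level was 2186 to 9459 CPM in P2- CMPs (median 4662) and 1168 to 3269 CPM in P2- MEPs (median 1884), with 23 of 27 P2- CMPs above every P2- MEP.

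By the same ranking, with the same limit, the highest ratio was that of Cd34 (13.04 [10.56, 18.34]), by which the populations were sorted and which is therefore no finding. Cd93, a surface protein of stem and early myeloid cells, was at 0 to 690.3 CPM in P2- CMPs with a median of 124 CPM, and at no more than 2.61 CPM in any P2- MEP. It had a read in 21 of 27 thinned P2- CMPs and in 0 of 56 P2- MEPs, and its log2 ratio was 11.16 [9.31, 14.21]. Adgrl4, an adhesion receptor, had no read in any P2- MEP and up to 647 CPM in P2- CMPs, a log2 ratio of at least 11.12, and the junction protein Esam (11.15 [8.67, 16.46]) was seen in 9 of 27 P2- CMPs. Meis1, a homeobox factor of stem cells, differed in another way. It had a read in all 27 thinned P2- CMPs, against 14 of 56 P2- MEPs, at 12.6 to 396 CPM (median 101) against at most 88 CPM, and 16 P2- CMPs lay above every P2- MEP. Its partner Hoxa9 was at 5.17 [4.87, 5.49] and Hoxa7 at 8.56 or more.

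Mycn was at 103 CPM in P2- CMPs, with a read in 16 of 27 thinned cells, and had no read in P2- MEPs, so that its log2 ratio was 10.03 or more. Its relative Myc was at 252.7 CPM in P2- CMPs and 394 CPM in P2- MEPs (-0.64 [-0.69, -0.59]), within 2-fold, or -1.16 with ERCC scaling. Mecom, Erg and Procr likewise had no read in P2- MEPs and a read in 9, 14 and 7 of 27 thinned P2- CMPs. A count of 0 of 56 thinned cells allows a share with a read of up to 5.36% of P2- MEPs at a floor of 3 cells, or 6.38% by the exact 95% interval, and does not limit the share of cells that express the gene. Gata2, which stem cells and early megakaryocyte and mast cell precursors use, was at 135 CPM in the median P2- CMP and 9.28 CPM in the median P2- MEP (2.31 [2.21, 2.41]), and 32 of 56 P2- MEPs held it before thinning. Not all members differed, since Kit (0.33), Lyl1 (0.18), Lmo2 (-0.16) and Cdk6 (0.04) lay within 2-fold.

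Runx1 itself, the gene whose P2 promoter the sort reported, was read in 24 of 27 thinned P2- CMPs and 35 of 56 P2- MEPs. It ranged from 0 to 165 CPM in P2- CMPs (median 77.2) and from 0 to 81.7 CPM in P2- MEPs (median 17.1), and 12 P2- CMPs lay above every P2- MEP. The log2 ratio was 1.61 [1.48, 1.75]. The counts are of whole genes, so transcripts from P1 and P2 were not told apart. In the P2+ cells the pooled levels of Runx1 were 156 CPM in CMPs and 57 CPM in MEPs, against 71.5 and 23.4 CPM in the P2- cells.

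The upstream sequences of the 3 highest-ranked genes with an entry, Cd34 at chr1:194938571-194938820, Serpina3g at chr12:104235897-104236146 and Adgrl4 at chr3:151437632-151437881, all on the plus strand, are printed in the same way. Here capitals mark AGGAAG, the letters of ETS factors such as PU.1 and Fli1, or TGTGGT, those of Runx factors.
Cd34: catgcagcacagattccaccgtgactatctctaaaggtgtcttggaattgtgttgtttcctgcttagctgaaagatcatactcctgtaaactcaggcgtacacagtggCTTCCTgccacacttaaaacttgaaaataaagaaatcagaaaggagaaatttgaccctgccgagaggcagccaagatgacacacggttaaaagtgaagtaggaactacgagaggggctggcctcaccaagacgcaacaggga
Serpina3g: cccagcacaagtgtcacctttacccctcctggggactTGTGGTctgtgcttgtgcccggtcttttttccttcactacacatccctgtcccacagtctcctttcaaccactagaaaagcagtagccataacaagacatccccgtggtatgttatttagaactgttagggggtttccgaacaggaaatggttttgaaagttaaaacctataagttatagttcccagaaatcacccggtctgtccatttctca
Adgrl4: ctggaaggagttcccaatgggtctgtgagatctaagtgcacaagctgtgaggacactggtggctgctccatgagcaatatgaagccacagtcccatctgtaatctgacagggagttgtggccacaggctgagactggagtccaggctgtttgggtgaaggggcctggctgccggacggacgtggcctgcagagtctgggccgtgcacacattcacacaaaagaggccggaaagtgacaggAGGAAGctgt
AGGAAG was found 142 bases before Cd34 on the opposite strand and 10 bases before Adgrl4, and TGTGGT was found once in the sequence of Serpina3g. In the same window 29.2% of all 27025 genes held AGGAAG and 14.2% held TGTGGT, and neither AGATAA nor CACACCC was found in these 3. Of the 6895 genes that passed and had an entry, 27.4% and 10.36% held them, and of the 1058 higher genes with an entry 33.7% and 11.3% did, a comparison that is void for the same reason. Serpina3g encodes a serine protease inhibitor of a family of closely related genes, between which reads can be split. It was read in 15 of 27 thinned P2- CMPs at up to 983 CPM and was at most 3.39 CPM in any P2- MEP (12.64 [10.16, 17.94]).

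Granulocytic and monocytic genes were also higher in P2- CMPs, but only in part. Of 33 listed, 14 passed the filter, and 11 of these were at least 2-fold higher and 0 at least 2-fold lower in P2- CMPs, with a median log2 ratio of 5.30 in which genes at 0 stand at their bound, beside 15.1% and 7.31% of all genes. Many of these passed through the P2- CMPs alone, and with a filter over all 83 cells 8 genes passed, 5 of them higher (10.8% of all genes), with a median of 2.74. The marker list written for cell types also held Alas1 and Ap3s1, which the list used here leaves out. Their log2 ratios were 1.57 and -0.35. Mpo, the myeloperoxidase of granule precursors, was read in 20 of 27 thinned P2- CMPs and 4 of 56 P2- MEPs. It reached 925 CPM in P2- CMPs with a median of 164 CPM and 45.2 CPM in P2- MEPs, and 16 P2- CMPs lay above every P2- MEP (6.61 [6.26, 6.97]). Spi1 was read in 19 and 9 cells, with medians of 79.3 and 0 CPM (4.17 [3.96, 4.39]). Csf2rb, the shared chain of the receptors for interleukin 3 and GM-CSF, and Csf3r, the receptor for G-CSF, had no read in P2- MEPs and a read in 16 and 9 of 27 thinned P2- CMPs (at least 8.67 and 8.33). Lyz2, a lysozyme, had none in P2- MEPs and one in 13 P2- CMPs (at least 10.36). Fcer1g (6.50 [5.98, 7.09]), Tyrobp (9.16 [7.30, 12.21]) and Prtn3, which encodes proteinase 3 (3.22 [3.01, 3.43]), lay in the same direction.

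Other granule genes were near absent from both populations. Elane and Ctsg, which encode neutrophil elastase and cathepsin G, had 2 reads each in all P2- CMPs and none in P2- MEPs. Cebpe, Csf1r, Ly6c2, Fcnb and Cd177, which mark later granulocytes or monocytes, had reads in at most 1 cell of either population before thinning. Cebpa was read in 5 P2- CMPs before thinning and Irf8, a monocyte factor, in 4, and neither passed the filter. Calr and Cebpb, at 0.17 and -0.34, lay within 2-fold. The granulocytic total was 1120.5 to 3315 CPM in P2- CMPs and 326.04 to 1511 CPM in P2- MEPs, with 20 of 27 P2- CMPs above every P2- MEP.

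Most megakaryocytic genes that passed were higher in P2- CMPs. Of 19 that passed, 13 were at least 2-fold higher in P2- CMPs, 2 were at least 2-fold lower and 4 lay within 2-fold, with a median log2 ratio of 2.17, beside 15.1% of all genes higher and 7.31% lower. With the filter over all 83 cells, 9 of 15 were higher, beside 10.8% of all genes. Summed in each cell, the list had medians of 1431 CPM in P2- CMPs and 501 CPM in P2- MEPs, and 21 of 27 P2- CMPs lay above every P2- MEP. Fli1, an ETS factor, was at 3.86 [3.66, 4.07], Mef2c at 2.17 [2.08, 2.26] and the growth factor Angpt1 at 6.51 [5.98, 7.09]. The platelet glycoproteins went different ways. Gp9 was read in 13 P2- CMPs and in no P2- MEP (at least 8.58), Gp1ba was lower in P2- CMPs at -4.38 [-5.19, -3.66], and Gp5 (-0.85, or -1.36 with ERCC scaling) and Itga2b (-0.07), whose product CD41 the sort excluded, lay within 2-fold. Slc14a1, a urea transporter of red cells that the list holds, was lower at -2.22 [-2.34, -2.10]. Itgb3, Ppbp and Clec1b of mature megakaryocytes and platelets had no read in any cell, and Pf4 had reads in 2 P2- CMPs before thinning. The highest megakaryocytic total of a P2- CMP was 4138 CPM.

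**Figure D3:**
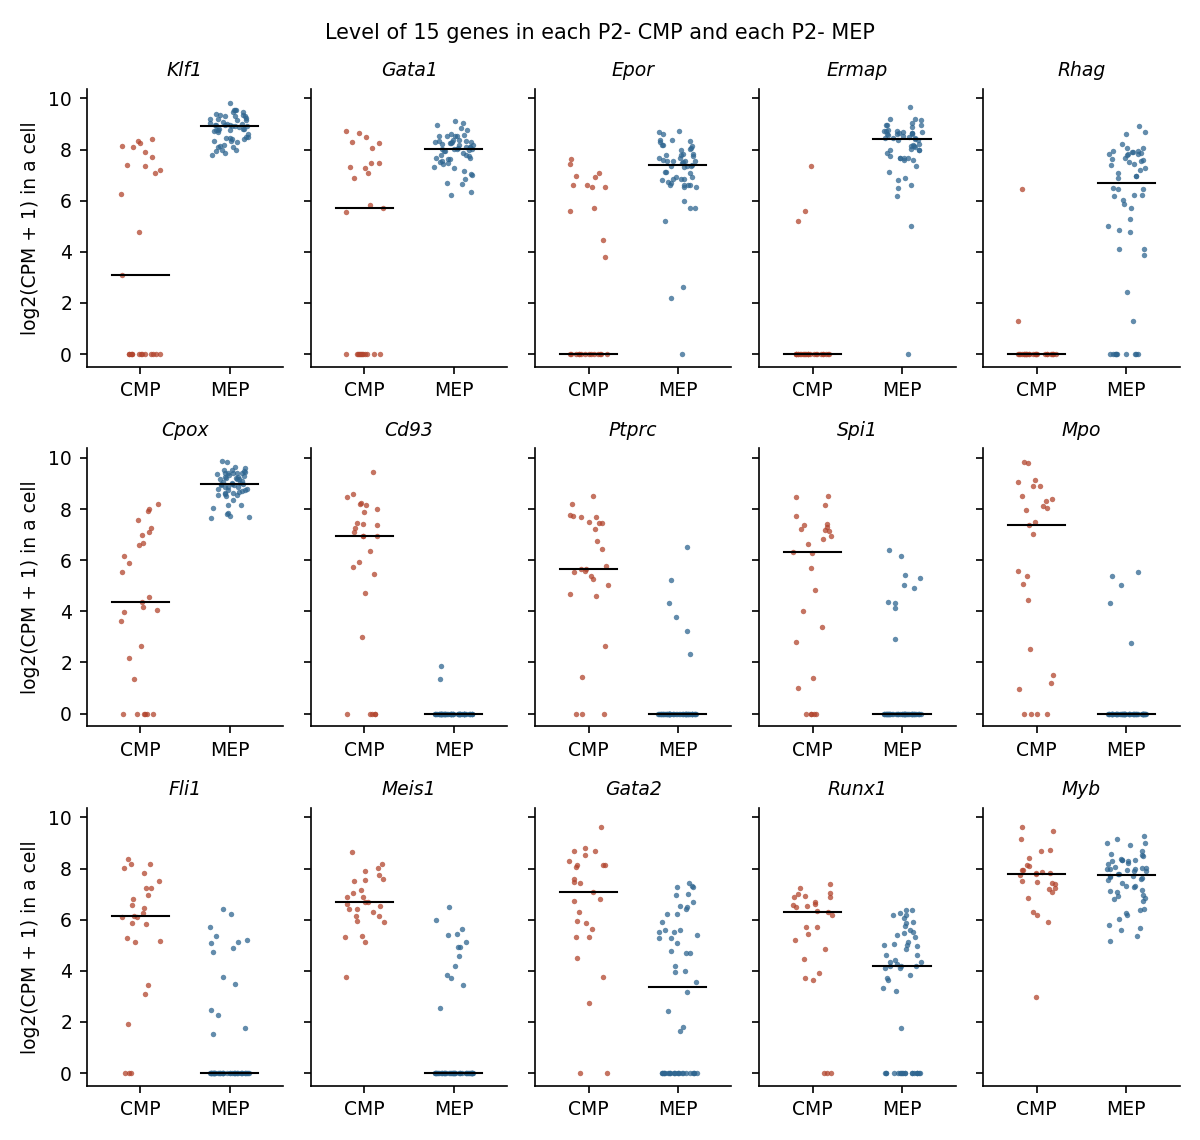
Level of 15 genes in each of 27 P2- CMPs and 56 P2- MEPs as log2(CPM + 1), with black bars at the medians and each point a cell. Klf1 and Gata1 were present in every P2- MEP and in some P2- CMPs, Ermap and Rhag in almost no P2- CMP, and Cd93, Ptprc, Spi1, Mpo and Meis1 in most P2- CMPs and a minority of P2- MEPs.

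In some single P2- CMPs, genes of different lines were read together, while others held only 1 gene of a pair. After thinning, Klf1 and Cd93 were both read in 9 of 27 P2- CMPs, Klf1 alone in 5, Cd93 alone in 12 and neither in 1. Klf1 and Mpo were both read in 8 P2- CMPs, Klf1 without Mpo in 6 and Mpo without Klf1 in 12. For Klf1 and Ptprc these numbers were 10, 4 and 13, and for Epor and Csf2rb they were 7, 6 and 9. Whether such pairs were more or less frequent than the separate frequencies of the genes would give was not tested. In P2- MEPs, Klf1 was in all 56 cells, with Mpo in 4, with Ptprc in 5 and with Cd93 or Lyz2 in none. The later gene Ermap was found beside Cd93 in 1 of 27 P2- CMPs. A well that received more than 1 cell would also hold such pairs. Reads of both Xist and Y-linked genes, at least 10 of each, were found in 0 of 27 P2- CMPs and 1 of 56 P2- MEPs, a check that sees only pairs of opposite sex.

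**Figure D4:**
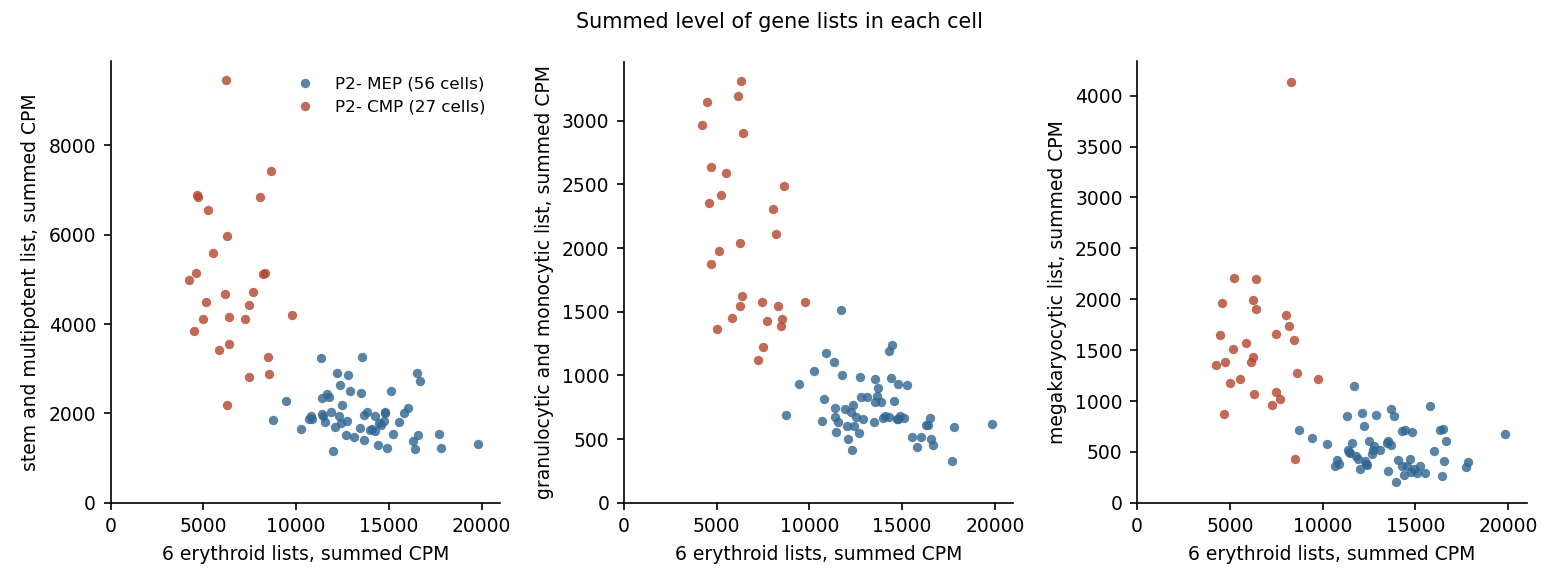
Summed CPM of the 6 erythroid lists (horizontal) against the stem and multipotent, the granulocytic and monocytic and the megakaryocytic list (vertical) in each cell, P2- CMPs in red and P2- MEPs in blue. All P2- CMPs but 1 lie to the left of every P2- MEP, and most lie above them.

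Of 19 cytokine receptor genes that passed, 12 were at least 2-fold higher in P2- CMPs and 1, Epor, was at least 2-fold lower, beside 15.1% and 7.31% of all genes. With the filter over all 83 cells, 6 of 13 were higher, beside 10.8% of all genes, and the median was 0.87 in place of 1.81. Beside Csf2rb, Flt3, the receptor of early lymphoid and myeloid progenitors, had a read in 6 of 27 thinned P2- CMPs and 0 of 56 P2- MEPs (8.36 [5.87, 13.67]). Tnfrsf1a (3.69 [3.40, 3.99]), Il6st, the shared chain of the interleukin 6 family (3.22 [2.90, 3.56]), and Tgfbr2 (2.98 [2.75, 3.22]) were higher as well, while Ifngr1 (-0.53, or -1.05 with ERCC scaling) and Ifnar1 (0.41) lay within 2-fold.

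**Figure D5:**
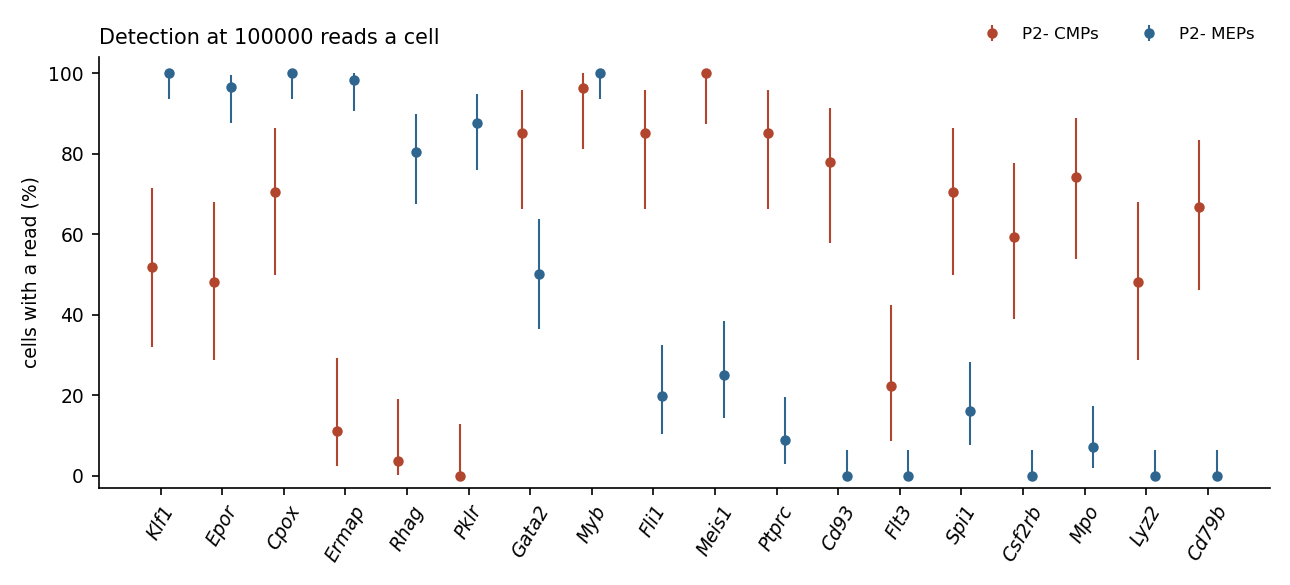
Share of P2- CMPs (red, n = 27) and P2- MEPs (blue, n = 56) with a read of each of 18 genes at 100000 reads a cell, with exact 95% binomial intervals as bars. The bars treat cells as independent draws, although all came from the same pool. Myb was found in nearly all cells of both kinds, the erythroid genes on the left in more P2- MEPs, and Cd93, Flt3, Csf2rb, Lyz2 and Cd79b in no P2- MEP.

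Tmsb4x, Coro1a, Rac2, Srgn and Adgrg1 were among the 10 genes with the widest gap in CPM in favour of P2- CMPs. Tmsb4x, which encodes the actin-binding thymosin beta 4, was at 285.6 to 2779.7 CPM in P2- CMPs and 0 to 765 CPM in P2- MEPs, with 24 of 27 P2- CMPs above every P2- MEP (2.80 [2.76, 2.85]). Coro1a, an actin regulator of white cells, separated the cells as well, with 24 P2- CMPs above every P2- MEP and a read in all 27 P2- CMPs and 20 of 56 P2- MEPs (5.19 [5.07, 5.31]). The GTPase Rac2 (1.96), the proteoglycan Srgn (2.27) and the adhesion receptor Adgrg1 (1.94) were read in nearly all cells of both kinds and differed in level. Ptprc, which encodes the pan-leukocyte protein CD45, was read in 23 of 27 thinned P2- CMPs and 5 of 56 thinned P2- MEPs (5.24 [4.91, 5.58]), and Cd48 in 24 and 33 (2.95 [2.87, 3.04]). Slamf1, which encodes the CD150 that both sorts required, was read in 11 of 27 P2- CMPs and 7 of 56 P2- MEPs.

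The machinery of cell division did not part the populations. All 25 DNA replication genes and all 22 mitosis genes lay within 2-fold, with medians of -0.16 and -0.15. Of all genes, 15.1% were higher and 7.31% lower. With ERCC scaling these medians were -0.68 and -0.67, near the shift of all genes. Then 4 and 2 of the genes were at least 2-fold lower, beside 20.6% of all genes. Cells differed widely, however, as the mitosis total ran from 332.5 to 11628 CPM in P2- CMPs and from 2111 to 9387 CPM in P2- MEPs, and 6 of 27 P2- CMPs lay below every P2- MEP. Of the regulators of the cycle, 6 of 17 were at least 2-fold higher and 1 lower, beside 15.1% and 7.31% of all genes. With ERCC scaling 4 were higher and 3 lower, beside 9.27% and 20.6% of all genes. With the filter over all 83 cells 3 of 14 were higher, beside 10.8% of all genes that passed it. Ccnd1, the D cyclin that growth factors induce, was at 3.13 [2.89, 3.37], Ccnd3 at 1.15 [1.08, 1.22] (0.63 with ERCC scaling) and the inhibitor Cdkn1a at 3.18 [2.81, 3.57], all higher in P2- CMPs, while Ccne1, which drives entry into S phase, was lower at -1.45 [-1.53, -1.36]. Cdkn1a was read in 8 of 27 and 3 of 56 thinned cells. Of the cholesterol and fatty acid genes, 1 of 22 was at least 2-fold higher in P2- CMPs and 0 were lower, beside 15.1% and 7.31% of all genes, and the median, 0.13, was -0.39 with ERCC scaling and -0.06 without the cell of highest CPM of each gene.

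Dissociation and sorting are known to induce immediate early genes. Of 13 genes of the immediate early and stress list that passed, 7 were at least 2-fold higher in P2- CMPs and 0 lower. The median log2 ratio was 1.001, and 15.1% of all genes were higher. With ERCC scaling 4 of 13 were higher, beside 9.27% of all genes, and the median was 0.49. The number was 6 with DESeq2 size factors, after thinning, and without the cell of conflicting label or the cell of highest CPM of each gene. The medians were then 0.76 to 0.97, beside 12.7% to 15.4% of all genes. With the filter over all 83 cells 6 of 12 were higher, beside 10.8%, with a median of 0.84. Zfp36 (2.99), Btg2 (4.07), Egr1 (1.96) and Fos (1.44, or 0.92 with ERCC scaling) were higher, and Fosb (0.29) and Dusp1 (0.69) lay within 2-fold. The summed level of the list, of which Hspa8 is the most abundant member, had medians of 3631 CPM in P2- CMPs and 3915 CPM in P2- MEPs, and 4 P2- CMPs lay above every P2- MEP. The part of handling in these values was not tested.

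Of the genes of antigen presentation and interferon response, 9 of 14 were at least 2-fold higher and 0 lower, beside 15.1% of all genes higher. With the filter over all 83 cells 7 of 12 were higher, beside 10.8%. With ERCC scaling 5 were higher, beside 9.27%, and 7 were with DESeq2 size factors or without the cell of highest CPM of each gene. The membrane proteins Ifitm1 and Ifitm3, at 8.34 [7.86, 8.86] and 7.04 [6.71, 7.38], were read in 15 and 18 of 27 P2- CMPs and 2 and 4 of 56 P2- MEPs. Single P2- CMPs reached 2965 CPM of Ifitm1 against a median of 48.3 CPM. The immunoproteasome gene Psmb8 was at 3.41 [3.22, 3.62] and B2m, the light chain of class I molecules, at 1.25 [1.21, 1.30] (0.74 with ERCC scaling), whereas the interferon-induced gene Bst2 (0.16) lay within 2-fold and Isg15 had reads in too few cells to pass.

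Among genes of the fetal program, Hmga2, a chromatin protein of fetal stem cells, was read in 26 of 27 and 35 of 56 thinned cells (2.11 [2.02, 2.19]) and Igf2bp2 was at 2.74 [2.57, 2.91]. Lin28b (0.10), which holds back maturation of let-7 RNAs and activates Hmga2 through it, and the relatives Igf2bp1 (-0.07) and Igf2bp3 (-0.06) lay within 2-fold. In all, 5 of 8 were higher in P2- CMPs, beside 15.1% of all genes. The number was 4 with ERCC scaling, with DESeq2 size factors, after thinning, and without the cell of highest CPM, the cell of conflicting label or the cell with reads of both sexes. With the filter over all 83 cells 4 of 7 were higher, beside 10.8%, with a median of 1.01 in place of 1.56.

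Markers of some other lines were read in P2- CMPs, mostly few of each list. Of the 21 lymphoid genes, 4 passed the filter, all through P2- CMPs, so that the filter itself fixed their direction. In the summed lymphoid level 18 of 27 P2- CMPs lay above every P2- MEP. Of the 20 mast, basophil and eosinophil genes 3 of 4 that passed were higher and 1 lower, beside 15.1% and 7.31% of all genes. In their summed level 14 P2- CMPs lay above every P2- MEP. This list shares Gata2 with the stem list and Csf2rb with the granulocytic list, and Gata2 gave 174 of its 324.5 CPM in P2- CMPs. With the filter over all 83 cells, 0 lymphoid genes passed. Of 2 mast, basophil and eosinophil genes 1 was then higher and 1 lower, beside 10.8% and 7.13% of all genes. Most defining markers were absent, however. Cd79b, part of the B cell receptor, was read in 18 of 27 thinned P2- CMPs and in no P2- MEP (at least 9.61), while its partner Cd79a had reads in 1 P2- CMP, and Pax5, Rag1, Rag2, Il7r, Dntt and Cd3e had no read in any cell. Cpa3, a carboxypeptidase of mast cells and their precursors, was read in 9 of 27 P2- CMPs and 1 P2- MEP (7.80 [6.91, 8.86]), with Mcpt4, Tpsb2, Cma1 and Prg2 at 0. The macrophage markers Adgre1, C1qa, C1qb, C1qc, Mrc1, Marco, Timd4 and Cd5l were at 0 in every cell. Of the macrophage list, Apoe was at 865 CPM in P2- CMPs and 414 CPM in P2- MEPs, and the iron exporter Slc40a1 was lower in P2- CMPs at -3.30 [-3.62, -2.99]. No hepatocyte gene passed the filter. Alb had a read in 1 of 27 thinned P2- CMPs and 4 of 56 P2- MEPs and Afp in 2 and 5, and the summed hepatocyte list over all cells was 41.6 CPM in P2- CMPs and 13.2 CPM in P2- MEPs. Among 15 endothelial and stromal genes, 2 passed the filter, both at least 2-fold higher in P2- CMPs, beside 15.1% of all genes. With the filter over all 83 cells 1 passed, at a log2 ratio of 2.44, beside 10.8% of all genes higher. Emcn was read in 7 P2- CMPs and no P2- MEP (at least 8.03). Flt1, Des, Lyve1 and Cdh5, which endothelial or stromal cells express, were at or near 0. The endothelial total was 0 to 300.9 CPM in P2- CMPs and 0 to 186 CPM in P2- MEPs.

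A principal component analysis of the 83 cells on the 500 most variable genes placed the populations apart on the first component, which held 13.4% of the variance against 3.36% for the second. On a scale in which the SD over all cells is 1, P2- CMPs lay between -0.20 and 2.04 (median 1.35) and P2- MEPs between -1.21 and 0.02 (median -0.64). A single P2- CMP fell inside the range of the P2- MEPs, and this was not the cell with the conflicting label. P2- CMPs were the more varied, with an SD of 0.57 against 0.29. Among the strongest loadings towards P2- MEPs were those of Blvrb, Ermap, Tnfaip2, Pklr and Klf1, and among those towards P2- CMPs were those of Cd34, Cd93, Fxyd5 and Tmem176b. Since the genes and cells that make the component are those compared, it is a description and not a test.

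The same comparison in the cells that expressed P2, 42 P2+ CMPs and 47 P2+ MEPs, shares no cell with the P2- comparison but comes from the same pool. There, 1124 of 9450 genes were at least 2-fold higher in CMPs (11.9%) and 689 at least 2-fold lower (7.29%). Of the 1284 genes higher in P2- CMPs that passed in P2+ cells, 544 were also at least 2-fold higher in P2+ CMPs and 36 were at least 2-fold lower. Of 573 genes lower in P2- CMPs, 196 were also lower in P2+ CMPs and 22 were higher. Klf1 had a ratio of -5.73 in P2+ cells against -2.45 in P2- cells, Ermap a bound of -10.38, with no read in P2+ CMPs, against -5.29, Cpox -2.99 against -2.94, Mpo 5.08 against 6.61, Csf3r 10.54 against a bound of 8.33 and Mecom 10.44 against a bound of 8.93. The P2+ ratios of Csf3r and Mecom rest on 1 read each in P2+ MEPs. Several genes with a wide gap in P2- cells had a narrow one in P2+ cells. Fli1 was at 0.19 against 3.86, Meis1 at 0.82 against 3.98 and Gp9 at -0.76 against a bound of 8.58. These differences between the P2- and the P2+ ratios were not tested.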

How the data were processed

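Single cells were sequenced by Smart-Seq2. The authors deposited raw read counts per gene and, for each cell, the percent of unmapped and ERCC reads. Per the submitters' processing notes and the study's methods, reads were trimmed with Trimmomatic 0.36, aligned to GRCm38 with ERCC sequences by STAR 2.4.2a and counted in exons, without strand, by HTSeq 0.6.1p1. Of the uniquely mapped reads, 24.2% were ambiguous between genes and 7.47% lay on no gene, and both were left out. Cells under 250000 reads, over 25% unmapped or over 15% ERCC were left out.

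Groups came from the labels. CMP_low was read as P2- CMP. The counts of each gene were added up within a population and set over its total of mouse-gene reads (Python 3.11.15, numpy 2.4.6, pandas 2.3.3). Log2 ratios carry exact conditional binomial intervals, and shares of cells exact Clopper-Pearson intervals, both at 95% (scipy 1.17.1). The former treat reads, and the latter cells, as independent draws. Neither covers differences between livers or pools. A population at 0 was set to a floor of 3 reads over the population. No test was made, because each population is 1 sample. Ratios of at least 2-fold were counted. DESeq2 1.42.0 (R 4.3.3) gave alternative size factors. The calculations were tested on simulated data.

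The genes named come from 23 gene lists, the 15 highest and 15 lowest ratios among genes at 50 CPM or more, and the 10 widest gaps in CPM in each direction. Ratios kept among the 15 had to hold without the cell of highest CPM. The members and lists were chosen with earlier results of these data known. The granulocytic and monocytic list left out Alas1 and Ap3s1, which the list of cell type markers held, a difference made before the counts were read. Some genes of the lists are not reported here.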

Additional observations from a re-analysis of the deposited data

Results flagged for a closer look

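Of the named genes, 3 lay past 2-fold in opposite directions in the P2- and the P2+ cells, and the difference between the ratios was not tested. Gata2, a factor of stem cells and mast cell and megakaryocyte precursors, was higher in P2- CMPs (174 CPM) than in P2- MEPs (35.2 CPM), a log2 ratio of 2.31, and lower in P2+ CMPs (102 CPM) than in P2+ MEPs (212.1 CPM), a ratio of -1.06. Cst7, which encodes the protease inhibitor cystatin F, had ratios of 1.63 in P2- and -1.28 in P2+ cells. Cd24a, a surface protein that red cell precursors carry, went the other way, with -1.08 in P2- and 1.20 in P2+ cells. Without the cell of highest CPM, the ratios in P2- cells were 2.11, 1.25 and -1.03.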

How the results depend on the processing

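With ERCC scaling, 866 genes were at least 2-fold higher and 1925 lower in P2- CMPs, against 1407 and 683. ERCC scaling moves every ratio by the same amount. When a gene had to have a read in 25% of all 83 cells, 930 genes were higher, as were 5 of 8 granulocytic and monocytic genes in place of 11 of 14 and 18 of 24 stem and multipotent genes in place of 29 of 35. By its construction this filter drops genes seen mostly in P2- CMPs, the smaller population. With no filter, 4559 of 19476 genes were higher (23.4%) and 2506 were lower (12.9%), and 21 of 24 granulocytic and monocytic genes were higher. Of 162 named genes past 2-fold, 17 were within 2-fold with ERCC scaling, 10 without the cell of highest CPM, 8 after thinning, 6 with DESeq2 size factors, 5 with equal weight for every cell, 4 without the cell of conflicting label and 1 without mitochondrial and dominant genes in the total. None of them was past 2-fold in the opposite direction under these settings. Of 139 named genes within 2-fold, 24 were past it with ERCC scaling and 6 with DESeq2 size factors, all of them lower, and 0 to 3 under each of the others. Leaving out the 1 P2- MEP with reads of both sexes, an alternative chosen after seeing the data, brought 1 named gene within 2-fold. On the first component, 1 P2- CMP overlapped the P2- MEPs with 2000 genes and with all genes too. No paired analysis was possible because each population is 1 sample from 1 pool. Differences between the populations cannot be told apart from differences between their sorts and wells.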

Other observations

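Further genes among the 15 highest ratios belong to several kinds of cell. Tie1, a receptor of endothelial and stem cells, was at 70.4 CPM in P2- CMPs and 0.0327 CPM in P2- MEPs, with a read in 15 of 27 and 1 of 56 thinned cells. Lsp1, an actin-binding protein of white cells, was read in 13 and 0 cells (at least 11.06), and the RNA-binding protein gene Rbpms in 15 and 1 (11.17 [8.69, 16.47]). Il16, which encodes a cytokine, was read in 17 P2- CMPs and 1 P2- MEP.

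Among the genes with the widest gaps in CPM in favour of P2- MEPs were Glrx5, which serves the making of iron-sulfur clusters (-1.53 [-1.57, -1.48]), the peroxiredoxin Prdx6 (-1.07 [-1.10, -1.04]) and Nhp2, a protein of small nucleolar particles (-1.08 [-1.12, -1.04]).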
